A study of Mus musculus with 8 samples.

Results

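Expression of 45 genes of the mitotic spindle, the kinetochore and chromosome segregation was examined in 8 clonal mouse liver tumour lines. The genes were taken from a list, and each was represented by a probe set that names it alone. In this way 44 of the 45 were measured, out of 22180 genes on the array, and the condensin subunit gene Ncapg was not analysed here because its only probe set also names another gene. No measured member had a choice of probe sets.

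The lines derive from liver tumours of C57BL/6 mice in which hepatocytes had been transformed by c-Myc together with NrasG12V, both carried on the vector pCaMIN. All 8 lines therefore share these drivers. Focal electroporation of the liver gave intrahepatic cholangiocarcinoma (ICC), a liver cancer resembling bile duct epithelium. Hydrodynamic injection into the tail vein gave hepatocellular carcinoma (HCC), which resembles hepatocytes. Delivery route and tumour type therefore cannot be told apart. Each line is 1 clone, grown untreated in DMEM with fetal calf serum and hybridised to 1 Affymetrix array. The ICC lines are ICC9 and ICC10, labelled female, and ICC2.7 and ICC2.9, labelled male. The HCC lines are HCC1 and HCC4, labelled male, and HCC2.1 and HCC2.4, labelled female. The labels give no age and do not say which lines share an animal, so a p-value here reflects the spread among these lines, which may be technical. Values of a gene in single lines are given in the order ICC9, ICC10, ICC2.7 and ICC2.9, then HCC1, HCC4, HCC2.1 and HCC2.4. The 8 deposited columns span only 7 directions, and the missing one weighs ICC9 (0.782) against ICC10 (-0.538) most, so tests are also given with it as a model term and without ICC9. Values are log2 signals, an SE is limma's moderated standard error, and "called" means an adjusted p under 0.05 in limma after Benjamini-Hochberg adjustment over all genes. With 4 arrays in each type, precision is limited by their number.

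The genes act in successive steps of cell division. Condensin and topoisomerase II compact and disentangle the chromosomes, the centromere recruits the kinetochore that binds microtubules, and kinesin motors build the spindle. The spindle checkpoint holds the anaphase-promoting complex inactive until every kinetochore is attached, after which securin is destroyed, separase opens cohesin, and the midzone directs cytokinesis. Most of these genes are transcribed only from late S phase to mitosis, under B-Myb and FoxM1, and are repressed in quiescent cells by the DREAM complex. In bulk RNA, more dividing cells and more transcript per cell cannot be told apart.

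Many promoters of this class hold a CHR element and a CCAAT box near the start site, and the members' promoters were searched for these letters because the genes varied together over the lines. A RefSeq promoter window (GRCm38.p6, 250 bases before to 50 after the start, the first listed for a gene) was matched by symbol for 38 of the 45 members. The CHR letters TTTGAA or TTCGAA, on either strand, were present in 29 of the 38 (76.3%), against 19.4% of the 27025 windows of all genes. A CCAAT on either strand was present in 28 members (73.7%), against 37.9% of all windows, and both in 25 members (65.8%), against 7.70%. TTCGAA reads the same on both strands and was counted once, and a CHR match may share an end letter with a CCAAT match. In 26 members a CHR match began within 50 bases of the start, a count that was not made over all windows. Mean GC content was 58.5% in the members' windows and 53.6% in all. A match is a description of the letters and not a binding site.

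The 4 promoters shown first belong to the members with the smallest p between tumour types among those holding both motifs. Each run is the 250 bases before the start on the gene's own strand, which is the minus strand for all of them, with CHR and CCAAT letters in capitals. In Mki67 and Cdc20 the CHR letters lie before the start, with first bases 116 and 98 bases before it in Mki67 and 18 before it in Cdc20. In Cenpf and Kif23 they begin at base 3 of the transcript, past the end of the printed run. The windows are chr1:189688087-189688336, chr7:135716380-135716629, chr9:61946800-61947049 and chr4:118437344-118437593.
Cenpf: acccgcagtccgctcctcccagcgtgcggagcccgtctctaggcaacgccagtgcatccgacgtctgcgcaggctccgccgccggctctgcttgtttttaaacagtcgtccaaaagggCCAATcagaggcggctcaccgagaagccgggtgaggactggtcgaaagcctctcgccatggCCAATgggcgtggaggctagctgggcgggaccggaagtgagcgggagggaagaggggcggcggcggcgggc
Mki67: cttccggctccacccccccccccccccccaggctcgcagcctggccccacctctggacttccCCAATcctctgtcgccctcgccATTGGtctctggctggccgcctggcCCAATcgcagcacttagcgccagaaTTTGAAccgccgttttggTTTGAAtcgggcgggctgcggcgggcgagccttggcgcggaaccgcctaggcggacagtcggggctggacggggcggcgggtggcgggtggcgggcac
Kif23: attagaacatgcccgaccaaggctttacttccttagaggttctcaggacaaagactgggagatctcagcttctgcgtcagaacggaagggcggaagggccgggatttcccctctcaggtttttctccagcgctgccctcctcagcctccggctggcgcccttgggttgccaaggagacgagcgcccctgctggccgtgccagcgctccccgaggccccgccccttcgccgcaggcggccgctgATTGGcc
Cdc20: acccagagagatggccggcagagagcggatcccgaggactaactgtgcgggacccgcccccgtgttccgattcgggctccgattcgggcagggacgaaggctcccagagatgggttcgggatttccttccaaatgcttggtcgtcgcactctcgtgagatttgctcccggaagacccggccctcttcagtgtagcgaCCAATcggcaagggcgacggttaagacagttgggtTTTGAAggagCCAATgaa

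For contrast, the windows of Pttg1 (chr11:43425982-43426231, minus strand) and Ncaph (chr2:127133955-127134204, minus strand) are shown, chosen after their values were seen because they were the members with lower means in ICC than in HCC lines. Neither holds the CHR or CCAAT letters.
Pttg1: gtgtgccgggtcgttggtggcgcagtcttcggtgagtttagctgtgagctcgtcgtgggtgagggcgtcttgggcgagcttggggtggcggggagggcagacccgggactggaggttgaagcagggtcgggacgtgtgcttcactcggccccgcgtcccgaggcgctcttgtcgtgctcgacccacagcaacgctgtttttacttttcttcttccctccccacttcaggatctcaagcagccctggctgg
Ncaph: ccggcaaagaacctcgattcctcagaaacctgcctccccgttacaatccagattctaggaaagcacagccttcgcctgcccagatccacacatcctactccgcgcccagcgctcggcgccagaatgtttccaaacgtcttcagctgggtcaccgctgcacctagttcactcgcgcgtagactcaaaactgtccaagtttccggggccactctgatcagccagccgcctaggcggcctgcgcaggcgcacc
Further members, Mad2l1, Plk4, Birc5 and Nuf2, also lack both motifs in the window, with log2 differences between types of 0.68, 0.80, 1.25 and 0.87. Bub3, with a difference of 0.14, holds both.

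Across the lines the members formed a graded order that ran through both tumour types. The mean over the 44 members was 8.35, 8.31, 8.82 and 8.87 in the ICC lines ICC9, ICC10, ICC2.7 and ICC2.9, and 8.21, 7.47, 7.59 and 7.70 in the HCC lines. The ICC2.7 and ICC2.9 lines stood highest, HCC4, HCC2.1 and HCC2.4 lowest, and ICC9, ICC10 and HCC1 lay close together in between. The mean over all 22180 genes stayed between 6.11 and 6.13 in the same arrays. Averaged over lines the members measured 8.59 ± 0.30 in ICC and 7.74 ± 0.32 in HCC (SD, n = 4 each), a difference of 0.84 log2 units or 1.80-fold. The groups did not overlap in this mean, and HCC1 minus the mean of ICC9 and ICC10 was -0.12.

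**Figure D1:**
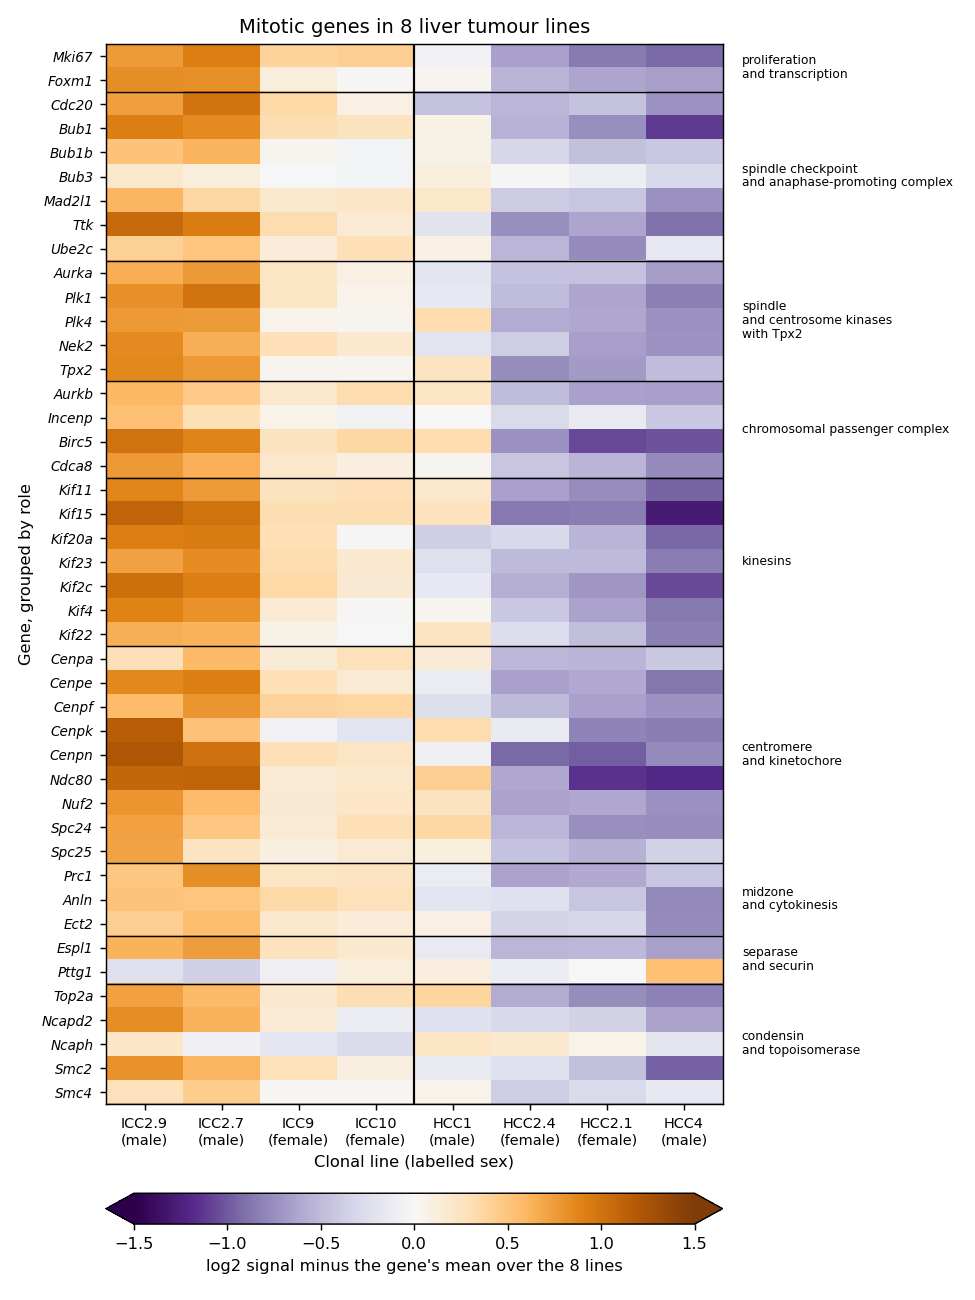
Heat map of the 44 measured members in the 8 lines. Rows are genes grouped by role, columns are lines with their labelled sex, and colour is the log2 signal minus the gene's mean over the 8 lines. ICC2.9 and ICC2.7 are the highest lines in most rows, HCC4 the lowest in 33 (share over all genes not computed), and Pttg1 and Ncaph run against the pattern.

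Single members mostly followed the same order. ICC2.7 and ICC2.9 were the highest lines of all 8 in 41 of 44 members, an arrangement found in 11.2% of all genes. In 43 members they lay above both ICC9 and ICC10 (29% of all genes). HCC4 was the lowest line in 33 members. HCC1 lay above every other HCC line in 41 members (26% of all genes) and above both ICC9 and ICC10 in 12. Within pairs sharing type and labelled sex, the median absolute difference over members was 0.10 for ICC9 and ICC10, 0.13 for ICC2.7 and ICC2.9, 0.11 for HCC2.1 and HCC2.4, and 0.70 for HCC1 and HCC4. Of these pairs the male-labelled HCC lines lay farthest apart. The range over lines was at least 1 log2 unit in 39 members, from 0.50 in the narrowest to 2.4 in the widest. For the counts of 33, 12 and 39 members the share over all genes was not computed.

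**Figure D2:**
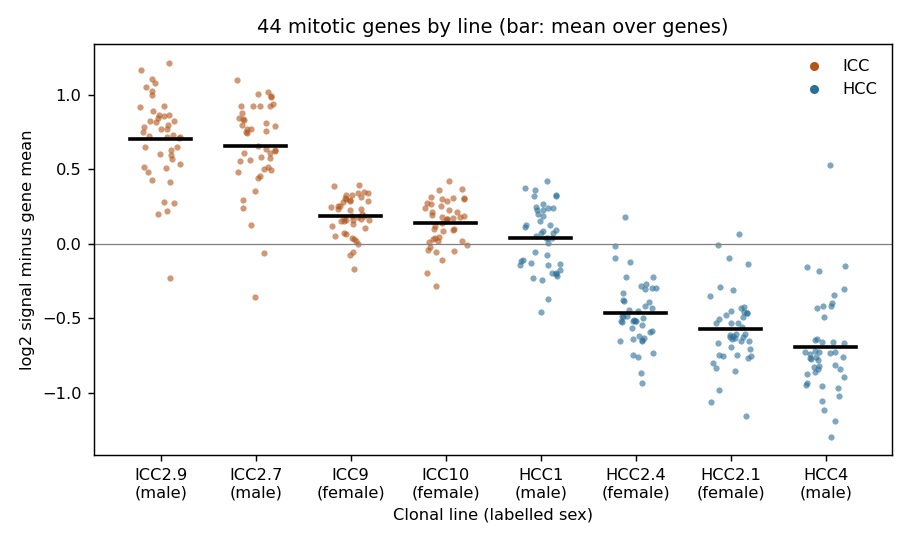
Members by line. Each point is a gene, plotted as its log2 signal minus its mean over the 8 lines, and the bar is the mean over the 44 genes. The points of HCC1 lie beside those of ICC9 and ICC10, well above the other HCC lines.

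Between tumour types 42 of 44 members had a higher mean in ICC lines, against 50.3% of all genes, and the median difference was 0.88 log2 units against 0.00 over all genes. Only Cenpf was called, 1 of 44 members, where limma called 0.261% of all genes. At an unadjusted p under 0.05 stood 40 members, all higher in ICC, against 14.1% of all genes in either direction. At an adjusted p under 0.1 stood 13 members (1.16% of all genes). The 4 ICC lines lay above the 4 HCC lines without overlap in 23 members (4.19% of all genes), and in 40 members they lay above HCC4, HCC2.1 and HCC2.4 (7.37%). At least 1 log2 unit separated the types in 15 members (0.87% of all genes).

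The number of members called differed between settings. With sex as a covariate limma called 17 members, all higher in ICC (1.93% of all genes), and without HCC1 it called 12 (0.491%). Without ICC10 or HCC4 it called 2 (0.289% and 0.41%), and without ICC9 (0.00902% of all genes), ICC2.7 (0.0721%), ICC2.9 (0.126%), HCC2.1 (0.018%) or HCC2.4 (0.0225%) it called 0, with 38 to 40 members then at an unadjusted p under 0.05. A model term for the missing direction gave 0 members called (0.0541% of all genes, 40 members at an unadjusted p under 0.05), and with sex as a further term 4 were called (0.537%), namely Mki67, Cenpf, Cenpn and Prc1. With the combination of type and sex as a random block 0 were called (0.0271% of all genes, 38 members at an unadjusted p under 0.05), and after averaging within each combination 0 (0% of all genes, 36 members at an unadjusted p under 0.05). Quantile normalization gave 6 (0.361%), genes above the median level 6 of 43 (0.929%), trend and robust settings 2 (0.352%), median centring 1 (0.325%) and averaging the probe sets of each gene 1 (0.248%). Sex as a covariate without ICC9 gave 0 (0.104% of all genes, 40 members at an unadjusted p under 0.05). For the counts at an unadjusted p under 0.05 in these settings the share over all genes was not computed. Leaving out 1 line at a time, the mean difference over members lay between 0.75 and 1.0.

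**Figure D3:**
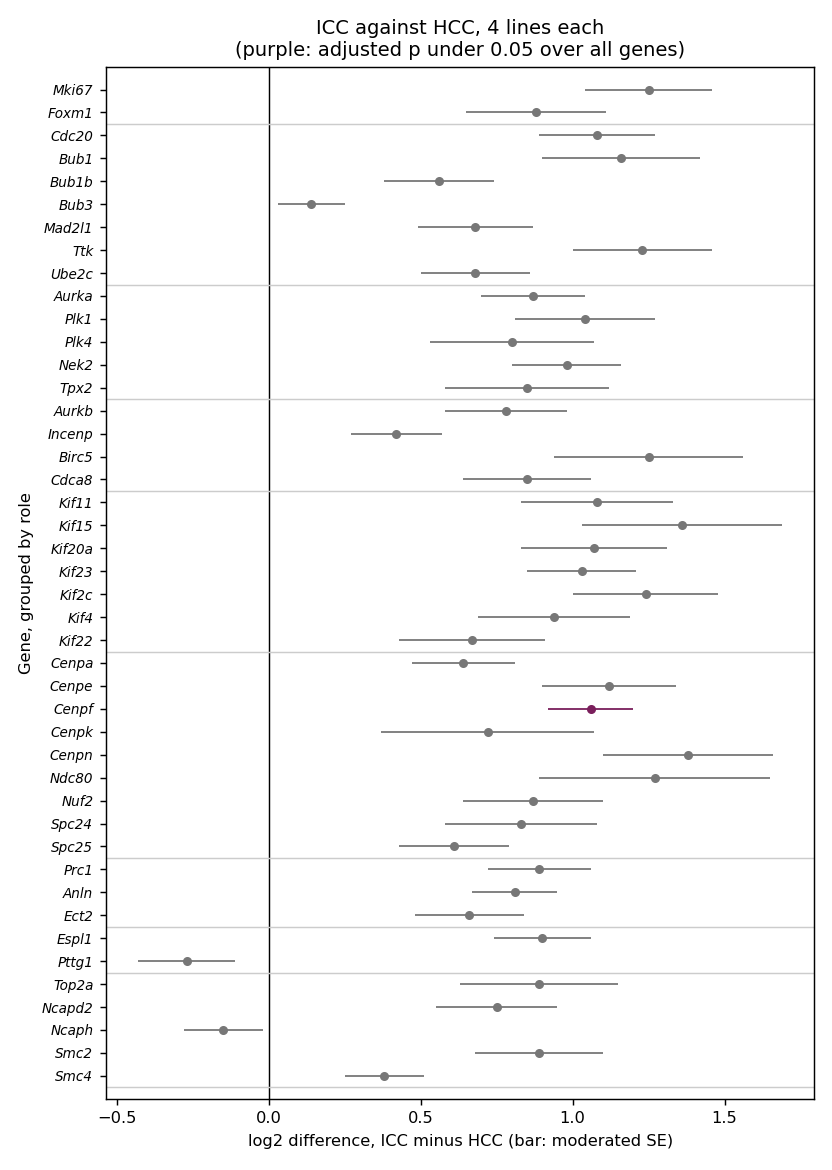
Difference between tumour types for each member. Points are log2 differences, ICC minus HCC (4 lines each), bars are moderated SEs, and grey lines part the role groups. Cenpf, in purple, is the member called over all genes, and only Pttg1 and Ncaph lie below 0.

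Among centromere and kinetochore genes all 9 measured members had higher means in ICC, 8 with an unadjusted p under 0.05, and 1 rose. Cenpf encodes a large protein of the outer kinetochore and nuclear matrix. It measured 7.96, 7.94, 8.36 and 8.14 in the ICC lines and 7.33, 6.85, 6.92 and 7.07 in the HCC lines, so that ICC10, the lowest ICC line, stood above HCC1, the highest HCC line. The rise was 1.06 log2 units, 2.08-fold (SE 0.14, adjusted p = 0.025). Cenpf was no longer called once the missing direction was modelled (adjusted p = 0.0742), in the male-labelled lines alone (0.0902), or without ICC9 (0.0907), ICC2.7 (0.0688), ICC2.9 (0.0831), HCC2.1 (0.0995) or HCC2.4 (0.0939). Nor was it called with the random block of type and sex (adjusted p = 0.159), after averaging within each combination (0.914), with sex as a covariate without ICC9 (0.059), or between the female-labelled lines with pooled spread (0.0561). Cenpn, which reads the centromeric nucleosome, had the largest difference of all members. Its values were 8.14, 8.08, 8.87 and 9.07 in ICC and 7.78, 7.09, 6.87 and 6.92 in HCC lines, again without overlap but with ICC2.7 and ICC2.9 far above ICC9 and ICC10. The difference of 1.38 (SE 0.28, 2.59-fold) had an adjusted p of 0.0872, and of 0.00944 with sex as a covariate. For Cenpn it was 0.194 with the missing direction, 0.0303 with both terms, and 0.053 to 0.213 without 1 line. Spc25, a subunit of the Ndc80 complex that grips the microtubule, had the smallest difference of the group, with 7.19, 7.25, 7.33 and 7.80 in ICC and 7.21, 6.74, 6.53 and 6.64 in HCC lines. HCC1 lay within the range of the ICC lines (difference 0.61, SE 0.18, adjusted p = 0.195). Cenpe, the kinetochore kinesin, differed by 1.12 (adjusted p = 0.0798). The other Ndc80 complex genes, Ndc80, Nuf2 and Spc24, differed by 1.27, 0.87 and 0.83 with adjusted p of 0.202, 0.164 and 0.198. In each of these, HCC1 exceeded ICC9 and ICC10. Cenpa, the centromeric histone H3 variant, differed by 0.64. Cenpk was the only member below the median level of all genes (mean 4.87 against 5.66), and differed by 0.72 (SE 0.35, adjusted p = 0.401).

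The proliferation antigen Mki67, which coats mitotic chromosomes, measured 9.64, 9.67, 10.17 and 10.0 in ICC lines and 9.19, 8.31, 8.39 and 8.59 in HCC lines. The types did not overlap, with HCC1 the HCC line nearest to the ICC lines. The difference of 1.25 (SE 0.21, 2.38-fold) had an adjusted p of 0.0551. It was called with sex as a covariate (adjusted p = 0.0187), without HCC1 (0.021) and after quantile normalization (0.0476). The adjusted p of Mki67 was 0.14 with the missing direction, and 0.0757 to 0.166 without any other single line. Foxm1, the transcription factor of G2 and mitotic genes, measured 7.44, 7.33, 8.13 and 8.14 in ICC and 7.36, 6.66, 6.69 and 6.79 in HCC lines. HCC1 lay between ICC9 and ICC10, so the types overlapped (difference 0.88, SE 0.23, adjusted p = 0.159, and 0.0439 with sex as a covariate). The adjusted p of Foxm1 was 0.308 with the missing direction, and 0.104 with both terms.

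In the spindle checkpoint and its target, the anaphase-promoting complex, all 7 members had higher means in ICC, 6 with an unadjusted p under 0.05, and 0 were called. Ttk (Mps1), the kinase that starts checkpoint signalling, measured 7.74, 7.57, 8.34 and 8.47 in ICC and 7.21, 6.52, 6.79 and 6.67 in HCC lines. The types did not overlap, and the difference was 1.23 (SE 0.23, 2.35-fold, adjusted p = 0.073). Cdc20, the activator of the anaphase-promoting complex that the checkpoint restrains, measured 8.86, 8.60, 9.51 and 9.25 in ICC and 8.06, 7.79, 8.06 and 8.0 in HCC lines. The HCC values of Cdc20 had an SD of 0.13, against a median of 0.33 over members, and HCC1 was level with HCC2.1. Its difference was 1.08 (SE 0.19, 2.11-fold, adjusted p = 0.0609). Bub3, a checkpoint adaptor, had the smallest difference, with 10.46, 10.42, 10.59 and 10.66 in ICC and 10.59, 10.16, 10.37 and 10.45 in HCC lines. HCC1 equalled ICC2.7 in this gene, and the difference was 0.14 (SE 0.11, adjusted p = 0.61). Bub1, a checkpoint kinase at kinetochores, differed by 1.16 and its relative Bub1b (BubR1) by 0.56. Mad2l1, which sequesters Cdc20, differed by 0.68. Ube2c, the ubiquitin-conjugating enzyme of the complex, measured 9.09, 9.26, 9.46 and 9.37 in ICC and 9.04, 8.80, 8.19 and 8.44 in HCC lines. Here the female-labelled HCC lines were lowest, below HCC4 (difference 0.68, SE 0.18, adjusted p = 0.163).

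The kinases of spindle and centrosome, with the spindle assembly factor Tpx2, had higher means in ICC in 5 of 5 members, all with an unadjusted p under 0.05, and 0 were called. Plk1, the Polo kinase that drives mitotic entry and spindle assembly, measured 9.58, 9.40, 10.34 and 10.17 in ICC and 9.21, 8.53, 8.72 and 8.87 in HCC lines. The groups were separate, with a difference of 1.04 (SE 0.23, 2.06-fold, adjusted p = 0.105). Plk4, which starts centriole duplication, measured 7.91, 7.89, 8.61 and 8.63 in ICC and 8.18, 7.13, 7.24 and 7.27 in HCC lines. HCC1 exceeded ICC9 and ICC10 and stood apart from the other HCC lines (difference 0.80, SE 0.27, adjusted p = 0.241). Tpx2, which activates Aurora A on spindle microtubules, measured 9.44, 9.44, 10.17 and 10.26 in ICC and 9.64, 8.91, 8.71 and 8.64 in HCC lines, with HCC1 again above ICC9 and ICC10 (difference 0.85, SE 0.27, adjusted p = 0.22). Aurka, the Aurora A kinase, differed by 0.87 and Nek2, which splits centrosomes, by 0.98, both without overlap (adjusted p = 0.0806 and 0.0678).

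In the chromosomal passenger complex, which corrects wrong attachments and then moves to the midzone, 4 of 4 members had higher means in ICC with an unadjusted p under 0.05, and 0 were called. Birc5 (survivin) measured 6.60, 6.71, 7.23 and 7.35 in ICC and 6.67, 5.33, 5.29 and 5.62 in HCC lines. HCC1 lay between ICC9 and ICC10 while the other HCC lines lay below all ICC lines (difference 1.25, SE 0.31, adjusted p = 0.143, and 0.031 without HCC1). The adjusted p of Birc5 was 0.274 with the missing direction, and 0.141 to 0.292 without any other single line. Incenp, the scaffold, had the smallest difference, with 8.27, 8.15, 8.50 and 8.74 in ICC and 8.21, 7.79, 8.07 and 7.92 in HCC lines (0.42, SE 0.15, adjusted p = 0.257). Its kinase subunit Aurkb differed by 0.78 and Cdca8 (borealin) by 0.85.

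All 7 kinesins had higher means in ICC with an unadjusted p under 0.05, 5 of them without overlap, and 0 were called. Kif15, a motor that backs up Kif11 in holding the spindle poles apart, measured 7.15, 7.14, 7.84 and 7.94 in ICC and 7.10, 5.54, 6.0 and 5.97 in HCC lines. HCC1 lay just below ICC10, and HCC4 was the lowest line (difference 1.36, SE 0.33, 2.58-fold, adjusted p = 0.131, and 0.0399 without HCC1). The adjusted p of Kif15 was 0.257 with the missing direction, and 0.123 to 0.28 without any other single line. Kif22, a chromokinesin, measured 7.65, 7.57, 8.20 and 8.23 in ICC and 7.82, 6.75, 7.10 and 7.31 in HCC lines, with overlap (difference 0.67, SE 0.24, adjusted p = 0.273). Kif11 (Eg5) differed by 1.08, the microtubule depolymerase Kif2c (MCAK) by 1.24, the chromokinesin Kif4 by 0.94, and the midzone motors Kif20a and Kif23 by 1.07 and 1.03. Kif20a measured 9.24, 8.92, 9.88 and 9.86 in ICC and 8.57, 7.99, 8.41 and 8.64 in HCC lines, without overlap.

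The remaining steps included the members that did not follow the list. In cytokinesis, Prc1, which bundles midzone microtubules, measured 9.40, 9.41, 10.0 and 9.65 in ICC and 9.06, 8.74, 8.56 and 8.53 in HCC lines (difference 0.89, SE 0.17, adjusted p = 0.0754). Ect2, the exchange factor that activates RhoA at the cleavage furrow, measured 10.22, 10.17, 10.59 and 10.46 in ICC and 10.12, 9.26, 9.72 and 9.70 in HCC lines (0.66, SE 0.18, adjusted p = 0.168). The types did not overlap in either gene, nor in Anln, the furrow scaffold, which differed by 0.81 (adjusted p = 0.0565). Separase, Espl1, measured 6.89, 6.82, 7.38 and 7.27 in ICC and 6.50, 5.99, 6.13 and 6.12 in HCC lines (0.90, SE 0.16, adjusted p = 0.0643). Its inhibitor securin, Pttg1, had a lower mean in ICC, with 7.16, 7.36, 6.88 and 7.01 in ICC and 7.35, 7.77, 7.23 and 7.14 in HCC lines. HCC4, the lowest line for most members, was the highest for Pttg1, and ICC2.7 the lowest (difference -0.27, SE 0.16, adjusted p = 0.481).

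Of 5 measured genes of condensin and topoisomerase II, 4 had higher means in ICC with an unadjusted p under 0.05, and 0 were called. Top2a, which untangles sister chromatids, measured 9.71, 9.84, 10.11 and 10.26 in ICC and 9.91, 8.72, 8.78 and 8.94 in HCC lines, with HCC1 above ICC9 and ICC10 (difference 0.89, SE 0.26, adjusted p = 0.19, and 0.0276 without HCC1). The adjusted p of Top2a was 0.344 with the missing direction, and 0.19 to 0.346 without any other single line. The condensin I subunit gene Ncapd2 measured 8.57, 8.31, 9.05 and 9.24 in ICC and 8.20, 7.78, 8.07 and 8.12 in HCC lines (difference 0.75), and the condensin ATPase gene Smc2 differed by 0.89. By contrast Ncaph, the kleisin of the same complex, measured 8.72, 8.61, 8.83 and 9.11 in ICC and 9.12, 8.71, 8.96 and 9.07 in HCC lines, which overlapped. The difference of Ncaph was -0.15 (SE 0.13, adjusted p = 0.668), while that of Smc4 was 0.38 (SE 0.13, adjusted p = 0.254). Smc4, the other condensin ATPase gene, measured 9.58, 9.58, 10.00 and 9.83 in ICC and 9.61, 9.41, 9.27 and 9.18 in HCC lines.

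Lines of the 2 labelled sexes were compared with tumour type in the model. All 44 members had lower means in the female-labelled lines, against 48.7% of all genes. Within ICC the list mean of the male-labelled lines lay 0.52 above that of the female-labelled lines. Within HCC the male-labelled lines HCC1 (8.21) and HCC4 (7.47) lay on either side of the female-labelled HCC2.1 (7.59) and HCC2.4 (7.70). Limma called 0 members (2.94% of all genes), and 11 had an unadjusted p under 0.05 (17.5% of all genes) and 2 an adjusted p under 0.1 (5.64%). The smallest p belonged to Tpx2 (female minus male -0.69, adjusted p = 0.0547), Cenpn (-0.70, 0.0574), Smc4 (-0.31, 0.101) and Ube2c (-0.42, 0.108). Within each type, with pooled spread, limma called 0 members in ICC (3.99% of all genes called) and 0 in HCC (2.66%). At an unadjusted p under 0.05 stood 22 members in ICC and 5 in HCC. Tpx2 was called after quantile normalization (2.98% of all genes) and with trend and robust settings (3.3%), and 21 members were called without HCC4 (4.13%). Without any other single line limma called 0, with 6 to 14 members at an unadjusted p under 0.05. Within each type and without single lines, the share of all genes at that unadjusted p was not computed. HCC1, the highest HCC line in most members, and HCC4, the lowest, are both male-labelled.

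The difference between types was larger in male-labelled than in female-labelled lines for 37 of 44 members (48.1% of all genes), with list means of 1.01 and 0.68. The same contrast sets ICC2.7, ICC2.9, HCC2.1 and HCC2.4, which share a form of name, against ICC9, ICC10, HCC1 and HCC4. A sex-dependent difference and a difference between these sets of lines therefore cannot be told apart. The interaction of type and sex was called for 0 members and for 0 of all genes (0%), with 4 members at an unadjusted p under 0.05 (20.1% of all genes). Without HCC1 the interaction had 37 members at an unadjusted p under 0.05 and 0 called, and without any other single line 3 to 10. For these fits without 1 line the share of all genes at that p was not computed. The 4 members in the fit of all 8 lines were Kif20a (0.55 in female-labelled and 1.59 in male-labelled lines), Cdc20 (0.70 and 1.46), Ncapd2 (0.35 and 1.16) and Pttg1 (0.08 and -0.62). Their adjusted p in limma were 0.132, 0.134, 0.139 and 0.162. With the spread pooled over the 4 combinations of type and sex, limma called 22 members between the male-labelled lines (6.05% of all genes) and 1, Ube2c, between the female-labelled lines (0.978%). That the calls differ in number is not a test of a difference between the sexes. Fitted on the female-labelled lines alone, 2 per type, it called 27 (3.14%), and on the male-labelled lines alone 1, Cdc20 (0.902%). The residual spread of the female-labelled fit comes from ICC9 against ICC10 and from HCC2.1 against HCC2.4. ICC9 and ICC10 are the pair that weighs most in the missing direction, so the count of 27 rests partly on a constrained spread.

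**Figure D4:**
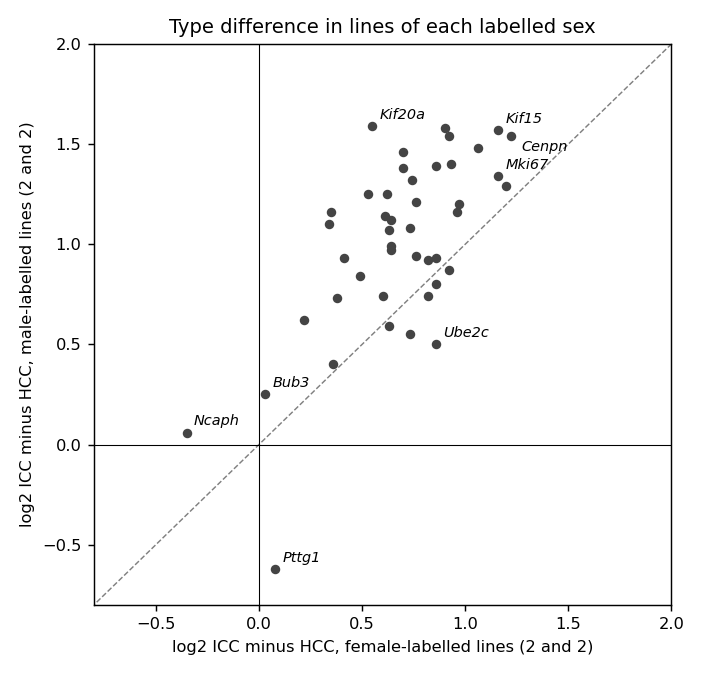
Difference between types in lines of each labelled sex. Each point is a member, the horizontal axis is ICC minus HCC (log2) in the female-labelled lines, the vertical axis the same in the male-labelled lines, 2 lines per type in each, and the dashed line marks equal differences. Most points lie above the dashed line, Kif20a farthest among those named, and Pttg1 lies below 0 in the male-labelled lines.

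Other genes of cell division were followed in 7 lists with 167 genes, of which 156 were measured. Limma called 5 of them, all higher in ICC (0.261% of all genes in either direction). With sex as a covariate it called 20, of which 18 were higher and 2 lower in ICC (1.93% of all genes). In the model without a covariate, 65 had an unadjusted p under 0.05 with a higher mean in ICC (7.06% of all genes) against 2 with a lower mean. The 2 lower genes were Wee1 and Psrc1 in both models. Psrc1 differed by -0.46 (SE 0.18, adjusted p = 0.305, and 0.0357 with sex as a covariate). The adjusted p of Psrc1 was 0.465 with the missing direction, and 0.116 with both terms. Spindle and cytokinesis genes outside the member list had a median difference of 0.61 over 29 genes, and 4 rose. These were Fam83d, which recruits a kinase to the spindle (0.96, SE 0.13, adjusted p = 0.031), the spindle pole gene Aspm (1.01, SE 0.15, 0.0345), the abscission gene Cep55 (0.99, SE 0.15, 0.0381) and Ckap2l (1.0, SE 0.15, 0.0381). In all 4 genes the types did not overlap, and none was called once the missing direction was modelled (adjusted p 0.0952 to 0.106). Among 11 measured mitotic cyclins and entry kinases, with a median of 0.36, Ccnb2 rose (cyclin B2, 1.16, SE 0.13, adjusted p = 0.014, and 0.0522 once the missing direction was modelled). Its values were 8.92, 8.88, 9.36 and 9.08 in ICC and 8.11, 7.78, 7.82 and 7.87 in HCC lines. The phosphatase gene Cdc25c, which activates Cdk1, differed by 1.24 (adjusted p = 0.0798), whereas Cdk1 itself differed by 0.38 (SE 0.17, adjusted p = 0.352) and overlapped between types. The kinase gene Wee1 was lower in ICC, with 8.45, 8.5, 8.57 and 8.75 against 9.4, 9.23, 9.08 and 8.92 in HCC lines. The types did not overlap in Wee1 (difference -0.59, SE 0.12, adjusted p = 0.0899, 0.0215 with sex as a covariate and 0.222 with the missing direction). Ccnb1 was not analysed here.

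The other lists had medians of 0.13 to 0.51. For 28 other kinetochore genes the median was 0.51 and 0 were called (14 with an unadjusted p under 0.05), with the outer kinetochore scaffold Knl1 at 1.14 (adjusted p = 0.124) and the microtubule coupler Ska1 at 0.98 (0.091). For 42 DNA replication genes it was 0.43 and 0 were called (18 with an unadjusted p under 0.05). Orc3 differed by 0.39 and Gins4 by 0.43 (adjusted p = 0.136 and 0.175). Mcm2, a subunit of the replicative helicase, measured 9.03, 8.89, 9.66 and 10.03 in ICC and 9.46, 8.32, 8.57 and 8.83 in HCC lines (0.61, SE 0.31, adjusted p = 0.414), and the sliding clamp gene Pcna 10.67, 10.71, 10.86 and 11.13 against 11.0, 10.14, 10.35 and 10.43 (0.36, SE 0.19, adjusted p = 0.422). HCC1 exceeded ICC9 and ICC10 in both. Over this list the mean of HCC1 was 0.25 above that of ICC9 and ICC10, while over the mitotic members it was lower (-0.12). This contrast was not tested. For 15 genes of cohesin and condensin II the median was 0.17 (3 with an unadjusted p under 0.05), where Ncapg2 at 1.17 (adjusted p = 0.188) and Ncapd3 at 0.46 (0.21) had the smallest p. For 17 subunits and regulators of the anaphase-promoting complex it was 0.14 (4 with an unadjusted p under 0.05), with Anapc11 at 0.30 (adjusted p = 0.231) and Anapc13 at 0.25 (0.216). For 14 B-Myb and DREAM factors it was 0.13 (3 with an unadjusted p under 0.05), with Mybl2 at 0.92 (adjusted p = 0.251) and Rbl1 at 0.67 (0.298). These 3 lists had 0 called genes, and their counts at an unadjusted p under 0.05 stand against 14.1% of all genes. In the RefSeq windows CHR letters were found in 55.6% of mitotic cyclins and entry kinases, 50% of other spindle and cytokinesis genes, 44.8% of other kinetochore genes, 40% of cohesin and condensin II, 27.3% of B-Myb and DREAM factors, 25% of the anaphase-promoting complex and 19.4% of DNA replication genes. These shares are a description with no test, and they do not follow the order of the lists' medians.

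**Figure D5:**
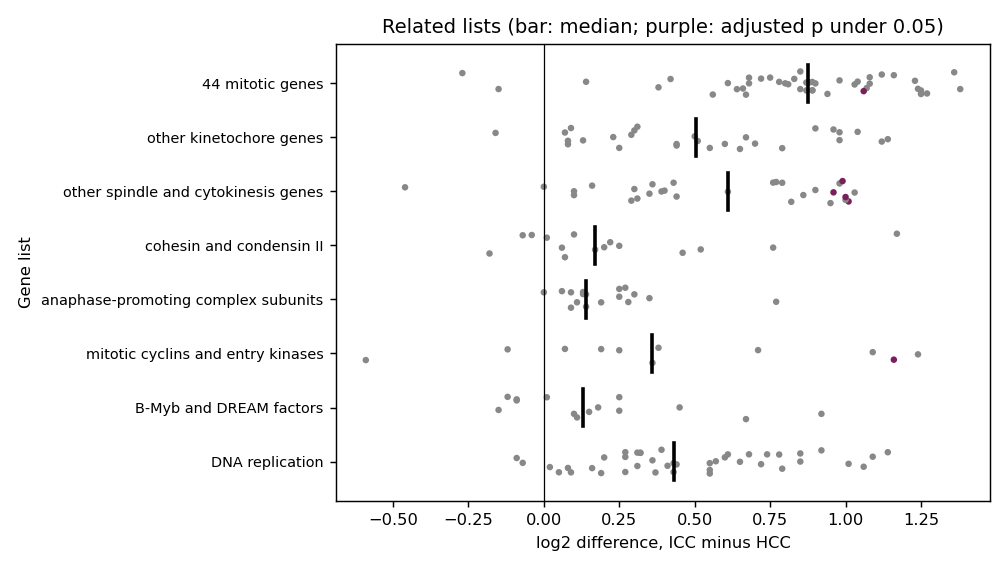
Differences between types in the members and 7 related lists. Each point is a gene, placed at its log2 difference, ICC minus HCC, the bar is the list's median, and purple marks an adjusted p under 0.05. Medians run from 0.88 for the mitotic members to 0.13 for B-Myb and DREAM factors.

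Markers of other cell types were followed in the same arrays, and some set ICC2.7 and ICC2.9 apart from the other lines. The 5 hepatocyte genes had means of 4.94 to 5.50, below the median level of all genes (5.66), with Alb (albumin) at 4.12 to 4.64 in all 8 lines. Hnf4a, a hepatocyte transcription factor, stood apart at 7.26 and 7.06 in HCC2.1 and HCC2.4 against 5.32 to 5.92 in the other lines. The 5 bile duct genes had means of 6.11 to 7.08, with Sox9, a duct transcription factor, at 11.56 ± 0.11 in ICC and 11.66 ± 0.18 in HCC (SD, n = 4 each). Of the others, Epcam (4.14 to 5.12) and Cftr (2.88 to 3.75) lay below the median level of all genes in every line, and Krt7 measured 5.84 to 6.04. Krt19, a duct keratin, measured 8.97, 9.26, 6.89 and 6.39 in ICC and 6.55, 5.6, 8.19 and 7.76 in HCC lines. It was higher in the female-labelled lines of both types (adjusted p = 0.00483 in limma for sex), opposite in direction to the members. Over 5 genes of stellate cells and fibroblasts the mean was 7.45 in ICC2.7 and 6.92 in ICC2.9, against 6.02 to 6.70 in the other lines. Of these genes Col1a1 measured 9.82 and 8.19 in ICC2.7 and ICC2.9 against 6.41 to 7.18, Pdgfrb 10.55 and 9.89 against 6.66 to 8.41, and Acta2 7.16 and 6.88 against 6.09 to 6.46. Des did not share this order, at 5.17 and 4.97 against 5.0 to 6.86, nor did Lrat stand out, at 4.55 and 4.65 against 4.42 to 4.64. Over 5 leukocyte genes the mean was 4.77 and 4.93 in ICC2.7 and ICC2.9 and 5.29 to 5.87 in the others. Cd68 measured 7.31 and 7.98 in that pair against 9.01 to 10.21, while Ptprc (CD45) stayed between 3.40 and 3.99 in all 8 arrays. The other leukocyte genes did not set the pair apart. Lyz2 measured 4.16 and 4.05 against 3.86 to 5.38, Cd79a 4.54 and 4.73 against 4.62 to 5.39, and Cd3e 4.36 and 4.36 against 4.32 to 4.83. The 4 endothelial genes had means of 4.85 to 5.07. The part of these genes in the result was not tested.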

How the data were processed

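RNA of 8 clonal lines, 1 Affymetrix array each, was summarised by the authors. The deposited log2 values come from RMA with oligo, per the submitters' processing notes. Their versions are not stated there. The table holds 39993 probe sets, of which 23521 name exactly 1 gene, and each of 22180 genes was represented by the one whose mean over all 8 arrays was highest. No dim probe sets were removed, and scanner files were not used here. Array medians lay between 5.02 and 5.09.

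Differences were tested with limma 3.58.1 in R 4.3.3 (lmFit, eBayes, two-sided, Benjamini-Hochberg over all genes; 6 residual and 2.85 prior degrees of freedom), and the fit was tested on simulated data. Sex was tested with type in the model, and the interaction with both. The members, gene lists and settings were chosen with earlier results of these data known, so the direction of cell cycle genes is not independent evidence here. Values in every line are given for called members, for the largest and smallest difference in each role group, for the smallest p in the sex and interaction tests, and for the listed markers named; related lists name up to 4 called genes or the 2 with the smallest p. Wee1 and Psrc1 are named in addition, as the related genes lower in ICC at an unadjusted p under 0.05. Other members are given by their differences. Python 3.11.15 with pandas 2.3.3 and matplotlib 3.10.9 made the counts and plots. Alternatives were leaving out lines, normalizations, covariates, blocks, filters and eBayes settings.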

Additional observations from a re-analysis of the deposited data

Results flagged for a closer look

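In 4 cases 1 line stood far from the other 3 of its type, by a gap above the 95% critical value of Dixon's test. For Plk4 HCC1 measured 8.18 and the other HCC lines 7.13 to 7.27, and for Nuf2 HCC1 measured 8.52 against 7.54 to 7.66. Mybl2, which encodes B-Myb, stood at 8.45 in HCC1 against 7.46 to 7.60. Cdc25c was low in HCC4, at 5.61 against 6.09 to 6.18. Chance alone gives about 1 such case in 20 groups. Examined were 128 groups of 4 lines, from the 44 members, the list mean and 19 named related genes, without Wee1 and Psrc1. In the other 137 related genes, counted after these values were seen, 13 of 274 groups passed the same value, 9 of them through HCC1. The 3 cases of Plk4, Nuf2 and Mybl2 share HCC1.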

How the results depend on the processing

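The mean difference over members stayed positive, and within 1 SD (0.31) of the main value, under the normalizations, covariates, filters, single sexes and left-out lines for which it was computed. It was lowest in the female-labelled lines (0.68) and highest in the male-labelled lines (1.01). It was not computed for the random block, averaged lines or trend and robust settings, nor for sex as a covariate without ICC9. The main setting called 1 member. The count was 2 with trend and robust eBayes settings, 6 with genes above the median level, 6 with quantile normalization, 17 with sex as a covariate, 4 with sex and the missing direction, and 0 with the missing direction alone, the random block or averaged lines. It was 27 in the female-labelled lines alone but 1 there with pooled spread. In the male-labelled lines it was 1 alone and 22 with pooled spread, and it was 13 at an adjusted p under 0.1. Leaving out 1 line gave 0 to 12 members, and sex as a covariate without ICC9 gave 0; this last and the pooled-spread contrasts were chosen after seeing the data. In the sex comparison the main count of 0 became 1 with trend and robust settings and 1 with quantile normalization, and 0 to 21 without 1 line; the interaction gave 0 members under each setting run. Related lists had 5 called genes, 20 with sex as a covariate and 0 with the missing direction. Among 400 values of 25 named members under 16 settings, 2 reversed, both close to 0: Pttg1 (0.08) in female-labelled and Ncaph (0.05) in male-labelled lines. The cause of these changes was not tested. No scanner signals were used, so dim genes such as Cenpk could not be set against their background.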
